A study of Mus musculus with 12 samples.

Results

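The genes described here are 40 genes of the G2 phase and of mitosis, chosen by symbol from a fixed list, out of 45703 gene rows in each of 2 deposited tables of transcript levels. The list was chosen with earlier results of these data known, so shares of it set beside those of all genes are descriptions. All 40 were found in both tables. They were sorted by role into 7 groups: 6 cyclins, Cdk1 and its activators; 3 mitotic kinases of mitotic entry and the centrosome; 5 genes of the spindle checkpoint and the anaphase-promoting complex (APC/C); 6 of the centromere and the chromosomal passenger complex; 9 spindle motors and microtubule proteins; 6 of cytokinesis; and 5 of mitotic chromosome structure. Every one of the 40 stood above 1 TPM (the level of a gene per length of its exons, at 1 common total for all libraries) in all libraries, with at least 152 reads, so that all 40 entered each test.

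RNA had been sequenced from 12 libraries of mouse CD4+ T cells: for the Th17 and for the Th1 lineage, 3 libraries of wild-type and 3 of GLUT3-deficient cells. In all 4 groups the cells came from C57BL/6 mice and began as naive T cells, which received antibodies to CD3 and CD28 and the cytokines of either lineage and were harvested after 3 days in vitro. The GLUT3-deficient genotype was labelled Slc2a3-fl/fl Cd4-cre. It carries floxed alleles of Slc2a3, the gene of the glucose transporter GLUT3, and a Cre recombinase under control of Cd4 sequences. Deletion is therefore expected in cells that express Cd4 or descend from cells that did, and not in other cells that a culture may hold. The labels do not say whether replicates were separate mice or separate cultures, so the p-values below measure the spread between these libraries, which may in part be technical. Whether a higher level came from more cells in G2 and mitosis or from more RNA per such cell cannot be told apart in bulk RNA.

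Dividing cells make most of these transcripts in a wave that begins late in S phase and ends as the cell divides. In G1 and in resting cells the genes are held down by the DREAM complex, in which the MuvB core binds the cell cycle genes homology region (CHR) of their promoters; later in the cycle MuvB joins B-Myb and FoxM1, and together with NF-Y, which binds CCAAT boxes, these activate them. The proteins then drive entry into mitosis, attach and separate the chromosomes and cut the cell in 2, and the APC/C removes many of them afterwards. Activated T cells divide fast, and the level of these transcripts in a T cell culture is commonly read as a mark of how many cells are cycling.

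The CHR and the CCAAT box were found in most of the promoters that could be read. RefSeq promoter windows on GRCm38.p6, from 250 bases before to 50 after the transcription start (300 bases), were at hand for 33 of the 40 genes, in 35 windows. The CHR was searched as TTTGAA and the CCAAT box as CCAAT, each on both strands, and matches were counted separately even where they shared bases. Variants of either motif were not searched, so a window without a match may still hold another form of it. TTTGAA was present in 80% of these windows, against 17.89% of all 32851 windows of the same length. CCAAT was present in 88.57%, against 37.41%, and both motifs in 74.29%, against 6.953%. The position differed in the same way: a TTTGAA starting no more than 50 bases before the transcription start, or after it, was found in 68.57% of the windows of these genes and in 4.944% of all windows. A match of letters is a description of the sequence and not a measured binding site. The windows below run from 120 bases before the start to 50 after it, 5′ to 3′ on the strand of the gene, with every TTTGAA and CCAAT, or their reverse complements, in capitals. They are the 8 most highly expressed of the genes with a motif, and the 3 cytokinesis genes Anln, Prc1 and Kif23, added after their values were seen because they led the difference between genotypes in Th1 cells.
Anln (chr9:22389157-22389326, minus strand): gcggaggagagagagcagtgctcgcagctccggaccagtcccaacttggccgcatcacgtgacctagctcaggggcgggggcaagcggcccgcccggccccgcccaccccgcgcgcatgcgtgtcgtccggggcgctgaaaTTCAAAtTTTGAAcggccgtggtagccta
Prc1 (chr7:80294331-80294500, plus strand): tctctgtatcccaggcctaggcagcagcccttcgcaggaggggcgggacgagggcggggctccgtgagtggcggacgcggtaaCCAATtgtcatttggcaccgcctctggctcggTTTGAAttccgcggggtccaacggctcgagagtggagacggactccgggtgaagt
Kif23 (chr9:61946750-61946919, minus strand): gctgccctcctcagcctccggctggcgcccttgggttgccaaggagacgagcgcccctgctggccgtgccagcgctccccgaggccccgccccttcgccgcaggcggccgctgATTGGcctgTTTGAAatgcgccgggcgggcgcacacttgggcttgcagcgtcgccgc
Ccnb2 (chr9:70421505-70421674, minus strand): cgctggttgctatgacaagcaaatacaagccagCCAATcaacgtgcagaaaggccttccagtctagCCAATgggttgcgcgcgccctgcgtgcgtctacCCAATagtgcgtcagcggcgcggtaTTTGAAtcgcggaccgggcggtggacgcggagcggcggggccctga
Ube2c (chr2:164769809-164769978, plus strand): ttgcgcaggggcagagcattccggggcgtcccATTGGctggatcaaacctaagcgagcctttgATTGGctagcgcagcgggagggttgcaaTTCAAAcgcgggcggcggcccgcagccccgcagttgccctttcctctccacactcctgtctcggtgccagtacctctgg
Cdc20 (chr4:118437294-118437463, minus strand): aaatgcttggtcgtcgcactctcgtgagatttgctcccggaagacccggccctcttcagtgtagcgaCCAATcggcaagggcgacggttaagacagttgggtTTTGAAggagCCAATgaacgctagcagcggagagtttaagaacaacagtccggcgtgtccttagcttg
Plk1 (chr7:122159315-122159484, plus strand): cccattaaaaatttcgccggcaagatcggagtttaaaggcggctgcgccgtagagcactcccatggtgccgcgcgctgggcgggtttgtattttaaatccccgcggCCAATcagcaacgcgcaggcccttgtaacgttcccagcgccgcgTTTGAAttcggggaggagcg
Aurka (chr2:172370521-172370690, minus strand): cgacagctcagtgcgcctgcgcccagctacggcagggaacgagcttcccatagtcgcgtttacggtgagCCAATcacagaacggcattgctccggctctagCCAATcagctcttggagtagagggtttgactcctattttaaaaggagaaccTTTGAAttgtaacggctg
Top2a (chr11:99024140-99024309, minus strand): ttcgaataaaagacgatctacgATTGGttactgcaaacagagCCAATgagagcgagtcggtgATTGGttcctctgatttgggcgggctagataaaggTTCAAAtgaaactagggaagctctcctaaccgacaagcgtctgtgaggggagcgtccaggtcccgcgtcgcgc
Cenpa (chr5:30666766-30666935, plus strand): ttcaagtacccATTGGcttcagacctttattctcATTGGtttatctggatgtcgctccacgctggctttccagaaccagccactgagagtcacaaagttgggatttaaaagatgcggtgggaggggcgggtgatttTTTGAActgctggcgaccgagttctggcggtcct
Ccnb1 (chr13:100786437-100786606, minus strand): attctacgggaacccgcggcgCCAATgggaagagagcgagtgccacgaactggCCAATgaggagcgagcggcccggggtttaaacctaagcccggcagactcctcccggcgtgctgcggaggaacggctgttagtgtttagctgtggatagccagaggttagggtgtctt

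Anln carried 2 TTTGAA matches side by side, starting 21 and 28 bases after the transcription start, and no CCAAT in its window. In Prc1 and Kif23 a CCAAT box stood 37 and 7 bases before the start, followed by TTTGAA at 5 bases before and 2 bases after it. Prc1 has another window in the table, from a later start, which puts the same CCAAT and TTTGAA 62 and 30 bases before it. Ccnb2 and Ube2c had several CCAAT boxes ahead of the TTTGAA printed above, while the window of Ccnb1 held CCAAT boxes and no TTTGAA. Ccnb2 had another TTTGAA outside the printed part, 167 bases before the start and ahead of its CCAAT boxes. Birc5 and Nusap1 had neither motif in the window. Of the genes that passed the test in Th1 cells described below, 16 of 21 with a window held TTTGAA (76.19%), and of those that did not pass, 10 of 12 (83.333%); these shares are descriptions without a test.

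**Figure D1:**
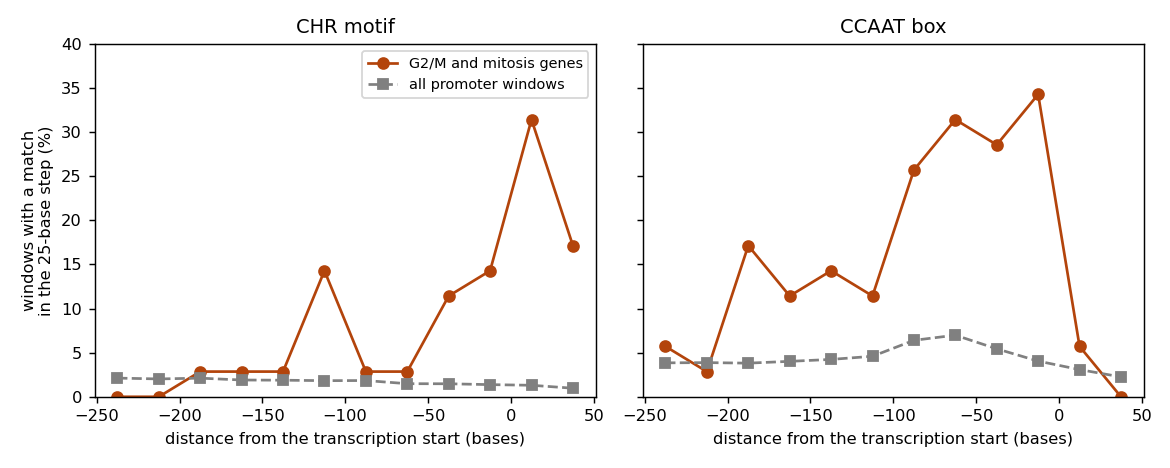
Share of promoter windows (%, vertical axis) with a match of the CHR motif (left) or the CCAAT box (right) starting in each 25-base step, by distance from the transcription start in bases. Orange circles are the 35 windows of the 40 genes, grey squares all 32851 windows; in the orange line CHR matches gather around the start, with 31.43% of windows in the step just after it, and CCAAT boxes lie ahead of them.

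The level of the floxed gene followed the labels. For Slc2a3 the 3 wild-type Th17 libraries read 379, 109 and 44.6 TPM and the deficient ones 5.14, 18.7 and 3.30 TPM. The Th1 libraries read 398, 95.6 and 64.7 TPM (wild type) and 6.79, 4.49 and 7.97 TPM (deficient). Libraries held 16596283 to 28496606 recovered reads. At that depth 3 reads on a gene with 1 kb of exon come to 0.190 to 0.437 TPM, which covers counting error only. In both lineages wild-type replicate 1, the library highest in Slc2a3, was the lowest of its group for nearly all of the 40 genes: for 38 of 40 in Th17 (against 44.7% of all genes) and for 37 of 40 in Th1 (against 35.9%). Its level of these genes was 0.50 and 0.49 times that of the other 2 libraries (median over the 40), where all genes had a median ratio of 0.93 and 0.99. The deficient Th17 replicate 2 stood apart from its group over all genes. Its distance from the rest of the group was 0.62 (absolute log2 difference, median), where the other 11 libraries had 0.14 to 0.42. It was the highest of its group in 31 of the 40 genes, and in 58.5% of all genes. Its median ratio to the other 2 libraries was 1.44 over the 40 and 1.28 over all genes. Counts of passing genes and median log2 fold changes of the 40 are also given without these libraries.

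The summed level of the 40 genes gave the first view of the groups. The sum was 1993, 4150 and 4047 TPM in the wild-type Th1 libraries and 5908, 6127 and 6134 TPM in the GLUT3-deficient ones. In Th17 cells it was 2819, 5846 and 5356 TPM in wild type and 6670, 8262 and 6349 TPM in deficient cells. In both lineages every deficient library lay above every wild-type library, and the 40 genes together made up between 0.199% and 0.826% of all transcripts. The median coefficient of variation between replicates, over the 40 genes, was 37.3% in Th17 wild type, 37.6% in Th1 wild type, 24.1% in Th17 deficient and 6.23% in Th1 deficient libraries. By mean TPM, Th17 deficient cells were highest for 35 of the 40 genes, Th1 deficient cells for 4 (Ccnb1, Ube2c, Nusap1 and Smc4) and Th17 wild type for Cenpa, and Th1 wild type was lowest for 39, all but Hjurp.

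**Figure D2:**
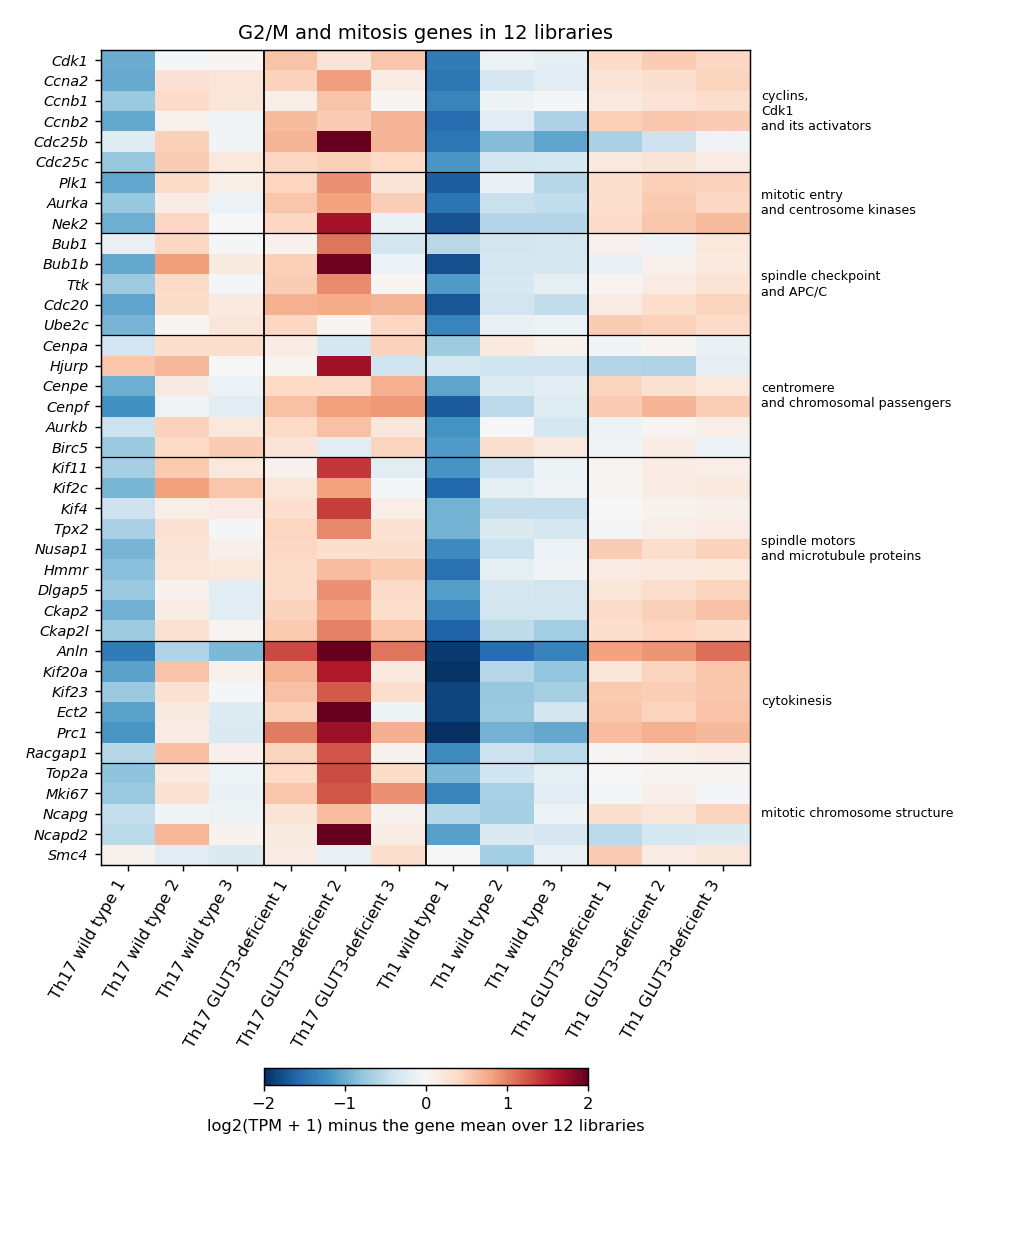
Heat map of the 40 genes (rows, grouped by role) in the 12 libraries (columns), coloured by log2(TPM + 1) minus the mean of that gene over the 12 libraries, from -2 (blue) to 2 (red). Wild-type replicate 1 is the bluest column of each lineage, and the 3 Th1 deficient columns look alike (median coefficient of variation 6.23%).

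**Figure D3:**
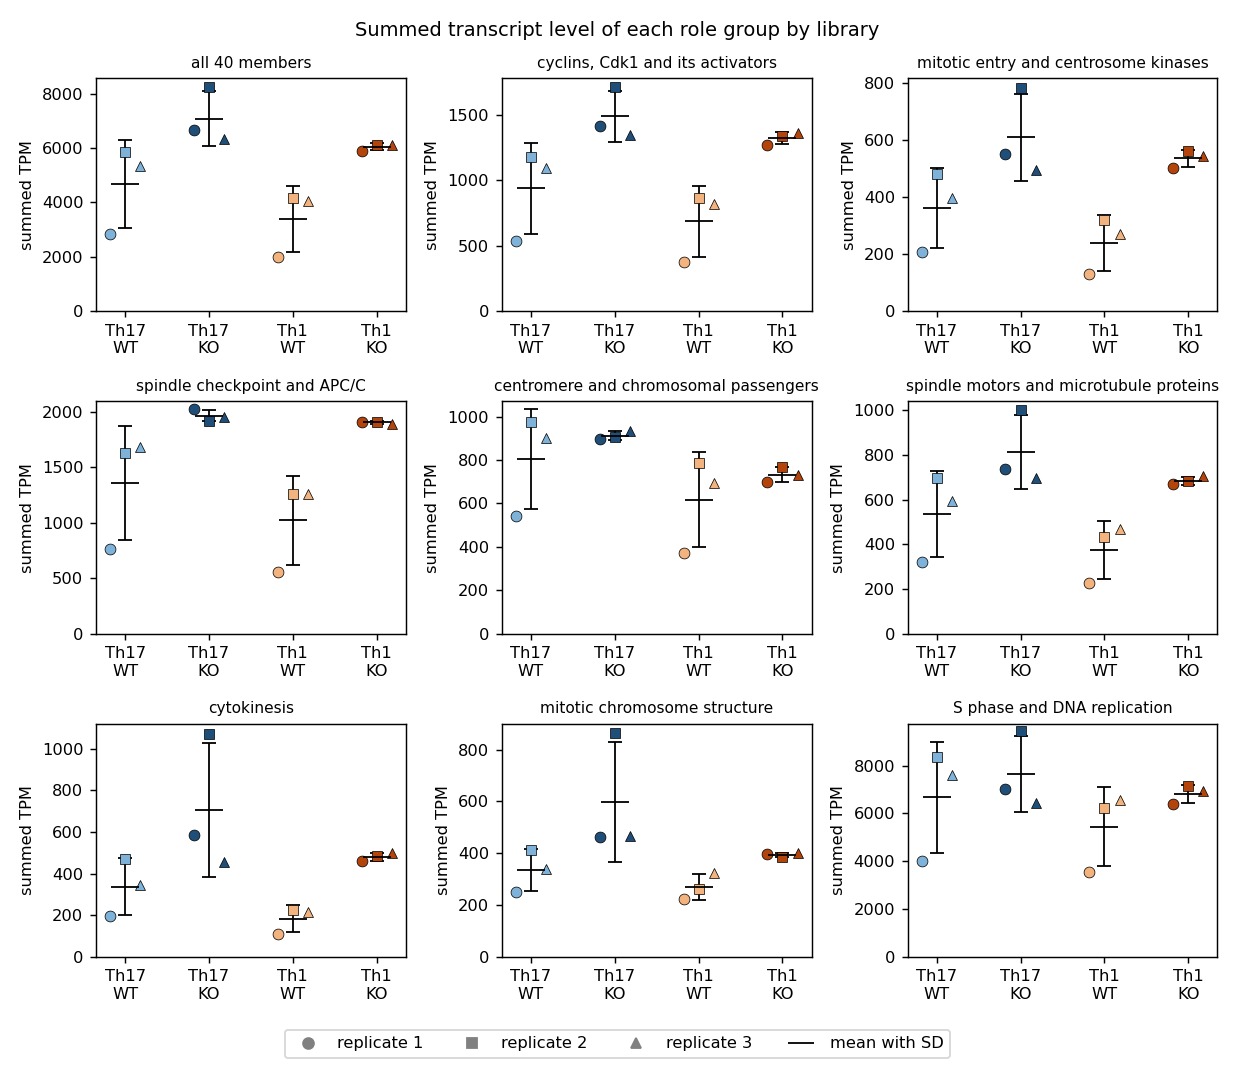
Summed TPM (vertical axis, from 0) of all 40 genes, of each role group and of 45 S phase and DNA replication genes, by group (WT, wild type; KO, GLUT3-deficient). Symbols are single libraries, the horizontal line is the mean and the bar the SD of 3; the sum of all 40 was 5908 to 6134 TPM in Th1 deficient libraries and 1993 to 4150 TPM in Th1 wild type.

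In Th1 cells, 26 of the 40 genes were higher in GLUT3-deficient than in wild-type cells and none was lower, at an adjusted p under 0.05 by limma on log2(TPM + 1). Over all 13487 genes tested, 17.6% were higher and 13.7% lower (31.3% either way). The median log2 fold change of the 40 was 0.84, against 0.031 for all genes. In 35 of the 40, every deficient library lay above every wild-type library and in none below, where 26.3% of all genes lay above and 20.8% below. By role, the share of genes that passed was 6 of 6 for cytokinesis and 3 of 3 for the entry kinases, 5 of 6 for cyclins, Cdk1 and its activators, 6 of 9 for spindle motors and microtubule proteins, 3 of 5 for the checkpoint and APC/C genes, 2 of 6 for the centromere and passenger genes and 1 of 5 for chromosome structure. Differences between roles were not tested.

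All 6 genes of cytokinesis rose in deficient Th1 cells, and Anln, Prc1 and Kif23 had the largest log2 fold changes of the 40. Anln encodes anillin, the scaffold that ties the contractile ring to the membrane. Its level was 2.54, 3.65 and 4.27 TPM in wild type and 22.4, 23.6 and 27.8 TPM in deficient cells, a log2 fold change of 2.53 (SE 0.19, adjusted p = 9.45e-05). The lowest deficient library was thus several times above the highest wild-type library, with wild-type replicate 1 again the lowest of its group.

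Prc1, the protein that bundles antiparallel microtubules at the spindle midzone, read 18.7, 45.3 and 43.1 TPM in wild-type cells and 136, 145 and 140 TPM in deficient cells (log2 fold change 2.04, SE 0.30, adjusted p = 0.00136). Kif23, the kinesin of the centralspindlin complex, stood at 13.3, 29.3 and 31.3 TPM against 72.4, 70.7 and 72.8 TPM (1.6, SE 0.29, adjusted p = 0.00343). For both, the 3 deficient libraries lay within a narrow range and all above wild type.

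Kif20a, a midzone kinesin that brings Plk1 and the passenger complex to the central spindle, read 12.2, 33.9 and 29.1 TPM in wild type and 59.8, 69.6 and 75.2 TPM in deficient cells (1.52, SE 0.33, adjusted p = 0.00825). Ect2, the exchange factor that switches on RhoA at the cleavage furrow, read 6.14, 14.2 and 18.6 TPM against 35.8, 33.7 and 36.6 TPM (1.5, SE 0.33, adjusted p = 0.0084). Racgap1, the partner of Kif23 in centralspindlin, rose least of the 6, from 54.6, 98.9 and 89.8 TPM to 134, 141 and 146 TPM (0.83, SE 0.22, adjusted p = 0.02). The role group thus ran from a mean ratio of deficient to wild type of 1.73 for Racgap1 to 7.06 for Anln.

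The 3 entry kinases rose together. Aurka, the kinase of centrosome maturation and spindle poles, went from 58.3, 119 and 115 TPM to 205, 232 and 216 TPM (1.22, SE 0.26, adjusted p = 0.00716). Nek2, which releases the linker between the centrosomes, went from 13.5, 31.4 and 31.3 TPM to 61.7, 69.9 and 74.6 TPM (1.49, SE 0.30, adjusted p = 0.0056). Plk1, which acts at many steps from mitotic entry to cytokinesis, read 58.2, 169 and 124 TPM against 235, 259 and 256 TPM (1.21, SE 0.33, adjusted p = 0.023). In none of the 3 did the groups overlap.

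Among the cyclins and the activators of Cdk1, Ccnb2 showed the largest difference. Cyclin B2 transcripts read 113, 280 and 213 TPM in wild-type cells and 458, 478 and 467 TPM in deficient cells (1.30, SE 0.29, adjusted p = 0.00888). Cdk1 itself, the kinase that the B cyclins activate, stood at 53.6, 133 and 125 TPM against 187, 203 and 191 TPM (1.00, SE 0.31, adjusted p = 0.0372). Ccna2, the cyclin of S phase and G2, rose by a similar amount (1.02, SE 0.29, adjusted p = 0.0279). The phosphatases Cdc25b and Cdc25c, which remove the inhibitory phosphates from Cdk1, also rose (0.74, SE 0.21, and 0.84, SE 0.23). Ccnb1 did not pass, although its 3 deficient libraries, at 262, 276 and 291 TPM, lay above the wild-type ones at 91.3, 212 and 224 TPM (0.76, SE 0.31, adjusted p = 0.0912).

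The checkpoint and APC/C group held the gene with the most transcripts of the 40. Ube2c, the ubiquitin-conjugating enzyme of the APC/C, read 406, 919 and 933 TPM in wild-type and 1437, 1387 and 1322 TPM in deficient Th1 cells (0.97, SE 0.29, adjusted p = 0.0335). Cdc20, the activator of the APC/C in mitosis, stood at 91.5, 232 and 215 TPM against 340, 387 and 413 TPM (1.19, SE 0.32, adjusted p = 0.0212). The checkpoint kinase Bub1 rose less (0.49, SE 0.15, adjusted p = 0.035). Bub1b, part of the mitotic checkpoint complex, and the checkpoint kinase Ttk did not pass (adjusted p = 0.0923 and 0.0576), with log2 fold changes of 0.87 and 0.70 and no overlap between the groups. In all 5 genes of this role the deficient libraries lay above the wild-type ones.

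Of the spindle genes, Ckap2l, Ckap2 and Dlgap5 had the smallest adjusted p-values. Ckap2l, a microtubule-associated protein of the mitotic spindle, rose from 22.5, 50.1 and 43.5 TPM to 89.9, 96.8 and 92.1 TPM (1.32, SE 0.27, adjusted p = 0.00602). Its relative Ckap2 rose from 10.8, 21.9 and 21.8 TPM to 37.2, 40.1 and 43.0 TPM (1.16, SE 0.26, adjusted p = 0.00903). Dlgap5, which stabilizes kinetochore fibres, rose from 30.5, 52.9 and 50.9 TPM to 79.4, 85.1 and 91.3 TPM (0.95, SE 0.22, adjusted p = 0.00999). Groups did not overlap for any of the 9 genes of this role.

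Nusap1, the most highly expressed of the spindle genes, stood at 58.9, 108 and 134 TPM against 207, 184 and 199 TPM (1.04, SE 0.27, adjusted p = 0.0181). Tpx2, which activates Aurora A on spindle microtubules, and the chromokinesin Kif4 rose by 0.62 (SE 0.19) and 0.69 (SE 0.18). The plus-end motor Kif11, the microtubule depolymerase Kif2c and Hmmr did not pass, with log2 fold changes of 0.68, 0.72 and 0.77 (adjusted p = 0.0719, 0.148 and 0.112). Tpx2, with the smallest difference of this role, passed.

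The centromere and passenger group was split. Cenpf and Cenpe, large proteins of the outer kinetochore, rose: Cenpf read 2.92, 7.61 and 9.47 TPM in wild-type cells and 16.5, 18.7 and 16.5 TPM in deficient cells (1.36, SE 0.33, adjusted p = 0.0133), and Cenpe rose by 0.84 (SE 0.23, adjusted p = 0.0248). Cenpa, the histone H3 variant that marks the centromere, read 133, 251 and 233 TPM in wild-type cells and 210, 225 and 199 TPM in deficient cells (0.09, SE 0.23, adjusted p = 0.797). Hjurp, the chaperone that loads it, stood at 28.3, 27.0 and 26.9 TPM against 23.5, 23.4 and 31.6 TPM (-0.08, SE 0.16, adjusted p = 0.759). For both genes the groups overlapped.

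The passenger genes did not pass either. Birc5, which encodes survivin, read 72.2, 198 and 183 TPM in wild type and 151, 176 and 146 TPM in deficient cells (0.19, SE 0.34, adjusted p = 0.716). Aurkb, the kinase of the complex and the most highly expressed gene of this role, read 124, 285 and 225 TPM against 266, 296 and 314 TPM (0.54, SE 0.27, adjusted p = 0.161). In both, wild-type replicate 1 was the lowest library and wild-type replicate 2 lay within or above the range of the deficient ones. Birc5, Cenpa, Hjurp, Aurkb and the condensin gene Ncapd2 were the 5 genes of the 40 with overlapping groups in Th1 cells.

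Among the genes of chromosome structure, the condensin subunit Ncapg rose, from 44.2, 41.6 and 61.7 TPM to 83.1, 78.4 and 90.4 TPM (0.78, SE 0.18, adjusted p = 0.0105). Top2a, the topoisomerase that untangles sister chromatids, stood at 98.0, 139 and 162 TPM against 185, 188 and 189 TPM and did not pass (0.52, SE 0.19, adjusted p = 0.0633). Mki67, the proliferation marker Ki-67, stood at 8.83, 14.7 and 19.9 TPM against 23.1, 25.3 and 23.2 TPM (0.75, SE 0.26, adjusted p = 0.054). Smc4 read 0.58 (SE 0.20, adjusted p = 0.0567) and Ncapd2 0.18 (SE 0.22, adjusted p = 0.582) on the log2 scale. Top2a and Mki67, both widely used as marks of proliferation, thus missed the threshold while all their deficient libraries lay above wild type. Ncapd2 is the only one of the 40 on chromosome 6, where it starts 2.366 Mb from the end of Slc2a3.

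**Figure D4:**
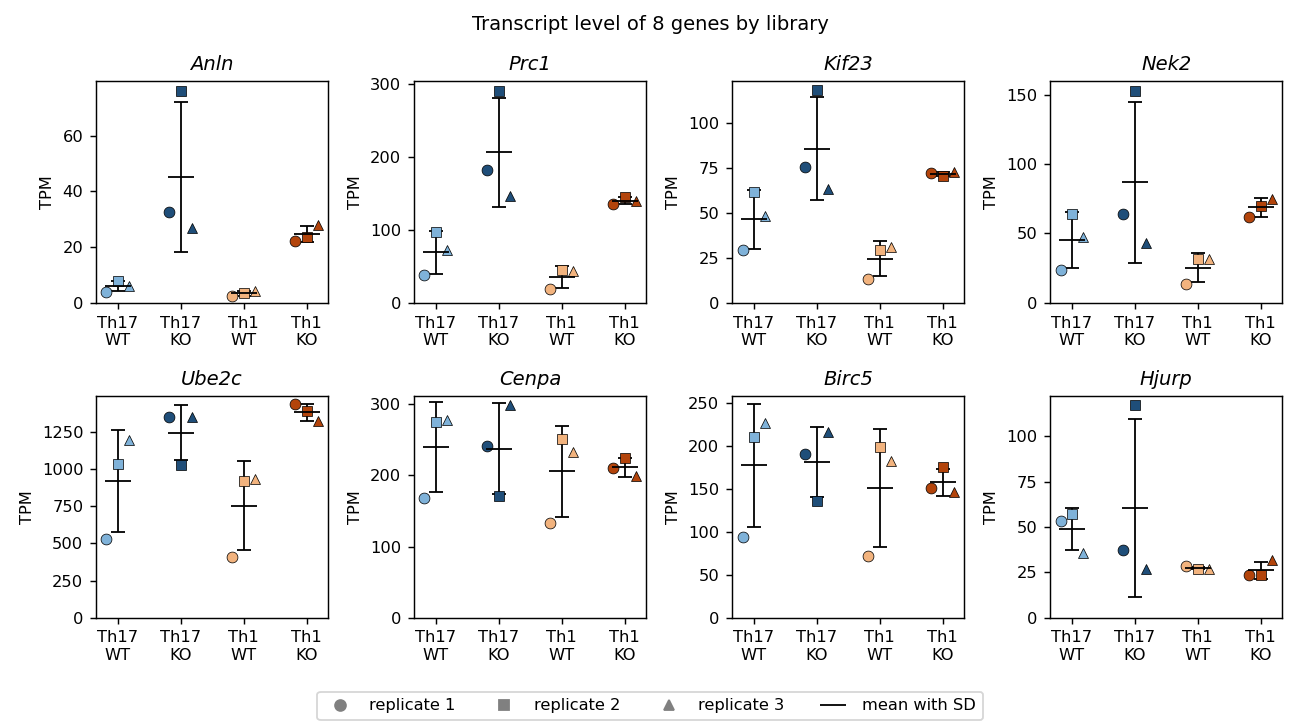
TPM (vertical axis, from 0) of 8 genes by group (WT, wild type; KO, GLUT3-deficient), chosen after the values were seen to show both kinds of behaviour. Symbols are single libraries, the line is the mean and the bar the SD of 3; for Anln the Th1 libraries lie at 2.54 to 4.27 TPM in wild type and 22.4 to 27.8 TPM in deficient cells, while for Cenpa, Birc5 and Hjurp they overlap.

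The Th1 difference was smaller but present without the low wild-type library. Without wild-type replicate 1, 26 genes passed, 25 of them among the 26 above, and the median log2 fold change fell from 0.84 to 0.58. Leaving out a deficient library left 15, 15 and 12 genes for replicates 1, 2 and 3. Anln, Prc1, Kif23, Nek2, Ckap2l, Aurka, Kif20a, Ccnb2, Ckap2 and Dlgap5 passed under each of the 14 alternative settings, and of the 26 Bub1 and Tpx2 passed under the fewest, 7 each.

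Genes listed as markers of other cells differed between the same groups. The summed level of 6 gamma delta T cell genes was 14.8 to 33.6 TPM in wild-type and 173 to 276 TPM in deficient Th1 libraries, and 17.4 to 20.4 against 166 to 261 TPM in Th17 libraries. For 10 myeloid genes it was 10.9 to 14 against 25.2 to 46.1 TPM in Th1 and 12.4 to 14.6 against 47.1 to 68.2 TPM in Th17 cells, and for 8 genes of CD8 and natural killer cells 62.1 to 78.5 against 195 to 283 TPM and 49.1 to 64.2 against 90.7 to 108 TPM. Of these lists 5 of 5, 2 of 3 and 4 of 6 tested genes were higher in deficient Th1 cells, with 2 of the last list lower, and 4 of 5, 4 of 6 and 2 of 6 in Th17 cells. Of all genes, 17.6% were higher and 13.7% lower in Th1 cells, and 4.6% and 2.7% in Th17 cells. For 7 genes of red cells and platelets, 2 of 6 tested rose, and their sum went from 11.7 to 25.2 TPM up to 59.1 to 197 TPM in Th1 and from 9.23 to 17.5 TPM up to 45.8 to 114 TPM in Th17 cells. For 7 B cell genes none of 5 tested passed in Th1 cells by limma. There 2 had an unadjusted p under 0.05, as had 5792 of all 13487 genes. Igkc passed in Th17 cells. The sum of the 7 was 88.1 to 112 against 68.4 to 475 TPM in Th1 and 114 to 153 against 132 to 198 TPM in Th17 cells. Sox13, Itgam, Csf1r, Adgre1, Klrb1c and Pax5 were under 1 TPM in all 12 libraries. The 5 genes that define Th17 cells summed to 660 to 1186 TPM in wild-type Th17 and 9.0 to 27.6 TPM in all Th1 libraries. In deficient Th17 libraries they summed to 473 to 657 TPM, below every wild-type one. None of the 5 passed there by limma (2 at an unadjusted p under 0.05, against 25% of all genes). The 5 genes that define Th1 cells summed to 828 to 1405 TPM in wild-type and 7310 to 9196 TPM in deficient Th1 libraries, most of it Ifng, with 3 higher (Ifng, Tbx21 and Il12rb2) and 1 lower (Cxcr3), and to 85.6 to 146 against 124 to 424 TPM in Th17 libraries, where Ifng passed. Of 9 T cell identity genes, 5 rose in deficient Th1 cells and none fell, with Cd3g, Cd4 and Trac at the smallest adjusted p. Their sum was 8038 to 9063 TPM in wild-type and 10830 to 11536 TPM in deficient Th1 libraries. In Th17 cells 1 of the 9 rose (Cd28), and the sums overlapped (8402 to 9692 against 8926 to 11717 TPM). The part of other cells in the level of the mitosis genes was not tested.

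In Th17 cells most of the 40 also had a log2 fold change above 0, but a single one passed. The log2 fold change of deficient against wild type was above 0 for 39 of the 40 and its median was 0.75, against 0.039 for all genes. Anln alone was higher and none was lower at an adjusted p under 0.05, where 4.6% of all 13823 genes were higher and 2.7% lower (7.3% either way). At an unadjusted p under 0.05 the count was 14 of 40, where 25% of all genes had such a p. In 19 genes every deficient library lay above every wild-type library, and in none below, against 18.5% and 18.2% of all genes. These 19 are all among the 35 in which the Th1 groups did not overlap. The limma test above did not use the replicate number. With that number as a block, 6 of the 40 passed, and 1399 of 13823 genes in all.

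Anln read 4.05, 7.77 and 6.16 TPM in wild-type and 32.5, 76.0 and 27.0 TPM in deficient Th17 cells (2.61, SE 0.43, adjusted p = 0.0172). The lowest deficient library lay several times above the highest wild-type library, as in Th1 cells. The call was lost when any of the 3 wild-type libraries or deficient replicate 1 was left out, with a log2 fold change between 2.08 and 2.90 over all 6 single libraries left out. A neighbouring gene whose span overlaps Anln, 9530077C05Rik, stood at 3.46 to 6.63 TPM in wild-type and 6.61 to 7.33 TPM in deficient Th17 libraries, well under Anln in the deficient ones.

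Prc1 came next, at 38.7, 97.5 and 72.3 TPM in wild-type and 182, 290 and 147 TPM in deficient Th17 cells (1.59, SE 0.39, adjusted p = 0.0554). Cenpf stood at 4.32, 10.8 and 9.54 TPM against 17.5, 20.9 and 21.4 TPM (1.26, SE 0.35, adjusted p = 0.0779). Mki67 stood at 13.7, 29.1 and 21.3 TPM against 34.8, 56.9 and 45.3 TPM (1.09, SE 0.33, adjusted p = 0.0946). In these 3 genes the groups did not overlap.

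The groups did not overlap for Aurka, Ccnb2 and Cdc20 either. Aurka read 95.6, 179 and 149 TPM in wild-type against 238, 284 and 229 TPM in deficient Th17 cells (0.86, SE 0.26, adjusted p = 0.0984). Ccnb2 read 162, 347 and 315 TPM against 511, 469 and 529 TPM (0.95, SE 0.30, adjusted p = 0.109), and Cdc20 146, 390 and 348 TPM against 498, 507 and 488 TPM (0.87, SE 0.37, adjusted p = 0.194). The deficient libraries of Ccnb2 and Cdc20 were close to each other, and the spread lay in the wild-type group. Cenpa and Birc5 again overlapped: Cenpa stood at 167, 275 and 278 TPM against 241, 171 and 299 TPM (-0.02, SE 0.29), and Birc5 at 94.4, 210 and 227 TPM against 191, 136 and 216 TPM (0.11, SE 0.37).

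Part of the spread came with deficient replicate 2. Cdc25b, with groups that did not overlap, had a log2 fold change of 1.37 (SE 0.61, adjusted p = 0.214) in Th17 cells, and most of its deficient mean lay in that library. For 18 of the 40 genes its level was over 1.5 times the mean of the other 2 deficient libraries, and for 8 it was below that mean. Cdc25b read 47.9, 234 and 47.8 TPM in the 3 deficient libraries, Ncapd2 43.9, 202 and 42.6 TPM, Ect2 34.5, 112 and 22.6 TPM and Hjurp 37.4, 117 and 27.0 TPM. Ube2c, at 1351, 1029 and 1347 TPM, and Cenpa and Birc5 were lower in that library than in the other 2. The 40 genes did not move as a block in it.

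Without deficient replicate 2, 3 genes passed in Th17 cells (Anln, Prc1 and Cenpf), with a median log2 fold change of 0.55. Without wild-type replicate 1 none passed and the median was 0.43. With both left out, a choice made after the data were seen that leaves 2 libraries a group, the median was 0.23 and 11 genes passed. Of these, 10 were higher (Anln, Prc1, Cenpf, Ccnb2, Cdk1, Mki67, Aurka, Smc4, Dlgap5 and Cdc20) and Kif2c was lower, with 4335 of 12847 genes passing in all and a median of -0.13 for all genes. With the replicate number as a block, 6 passed, with 1399 of 13823 genes passing in all: Anln, Prc1, Cenpf, Mki67, Top2a and Cdc25b. By the check given with the methods, same-numbered Th17 libraries deviated together, though for replicate 1 only by a narrow margin.

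**Figure D5:**
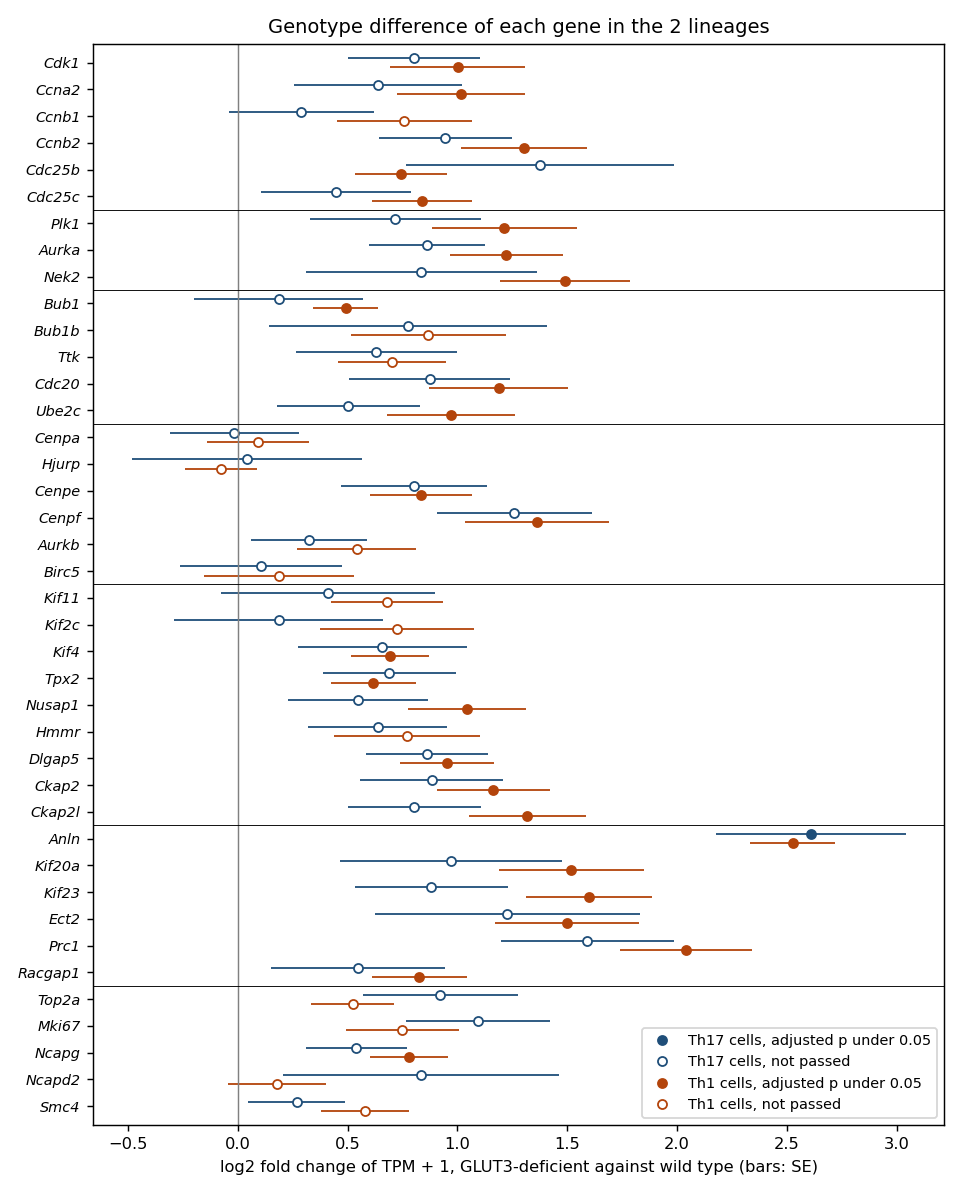
Log2 fold change of TPM + 1 (horizontal axis) of GLUT3-deficient against wild-type cells for each of the 40 genes (rows, grouped by role), with its SE as a bar. Blue circles are Th17 cells and orange circles Th1 cells; filled circles passed an adjusted p under 0.05, which 26 genes did in Th1 and Anln alone in Th17 cells.

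The difference of the genotype effect between the lineages was tested for each gene. None of the 40 passed, by limma on TPM or by voom on recovered reads, and none had an unadjusted p under 0.05, while 0.638% of all 14579 genes passed and 6.38% had an unadjusted p under 0.05. For 33 of the 40 the log2 fold change was larger in Th1 than in Th17 cells, and the median difference, Th17 minus Th1, was -0.27. The median turned to 0.069 without wild-type Th1 replicate 1. It was -0.56, -0.03 and -0.18 without wild-type Th17 replicates 1, 2 and 3, -0.40 and -0.17 without deficient Th17 replicates 2 and 3, and -0.41 without both wild-type replicate 1 libraries and deficient Th17 replicate 2. It ran from -0.72 (SE 0.49) for Kif23 to 0.65 (SE 0.73) for Ncapd2, and was 0.08 (SE 0.50) for Anln. With SEs of this size, the 26 passes against 1 are not shown to be a difference between lineages.

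Between the lineages none of the 40 genes passed in wild-type cells, by limma or by voom, where 1.85% of all 14579 genes were higher in Th17 and 1.78% lower (3.63% either way). At an unadjusted p under 0.05 there were 5 of the 40, against 14.6% of all genes. All 40 had a log2 fold change above 0, Th17 against Th1, with a median of 0.55. The median was 0.23 without wild-type Th1 replicate 1, 0.32 without wild-type Th17 replicate 2, 0.81 without wild-type Th17 replicate 1 and 0.52 without both replicate 1 libraries. For all genes the median was 0.14, with 64.6% above 0, so that TPM values of Th17 libraries lay above those of Th1 libraries in general. With median-of-ratios scaling, which puts the median of all genes at -0.007, the median of the 40 was 0.37. In 4 genes (Cdc25b, Bub1, Hjurp and Kif4) every Th17 library lay above every Th1 library, and in none below, against 18.8% and 7.89% of all genes.

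Between the lineages of GLUT3-deficient cells none of the 40 genes passed at an adjusted p under 0.05 by limma, with 1 passing by voom, where 3.35% of all genes were higher in Th17 and 2.56% lower (5.91% either way). At an unadjusted p under 0.05 there were 4 of the 40, against 20.6% of all genes. The median log2 fold change was 0.22, against 0.13 for all genes, and 0.055 against -0.016 with median-of-ratios scaling. It was 0.14 without deficient Th17 replicate 2 and 0.40 without replicate 3. The gene nearest the threshold was Cdc25b, at 47.9, 234 and 47.8 TPM in Th17 and 18.5, 22.0 and 27.9 TPM in Th1 deficient cells (1.81, SE 0.50, adjusted p = 0.0543). It passed without any one of the 3 Th17 deficient libraries, replicate 2 included. In wild-type cells Cdc25b also lay higher in Th17, at 24.7, 41.6 and 28.3 TPM against 10.2, 15.7 and 13.7 TPM (1.18, SE 0.50, adjusted p = 0.289).

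The wider cell cycle was read from lists of other genes, chosen like the 40 with earlier results of these data known. Of 56 other mitosis genes, 24 were higher and none lower in deficient Th1 cells, against 17.6% and 13.7% of all genes. Their median log2 fold change was 0.69. The 3 with the smallest adjusted p were Pttg1, the securin that holds separase (1.69, SE 0.19), Mastl, the kinase that restrains PP2A in mitosis (1.6, SE 0.20), and Cdkn3, a phosphatase that acts on Cdk proteins (1.64, SE 0.22). Pttg1 read 30.5, 37.6 and 50.4 TPM in wild-type and 125, 138 and 119 TPM in deficient Th1 cells. It was also the gene of this list that passed in Th17 cells (2.12, SE 0.34, adjusted p = 0.015), where 4.6% of all genes were higher.

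Few S phase genes passed. Of 45 genes of S phase and DNA replication, 2 rose in deficient Th1 cells, the clamp loader subunit Rfc3 (1.45, SE 0.20) and the histone mRNA binding protein Slbp (0.80, SE 0.19), and none fell, against 17.6% and 13.7% of all genes; the median log2 fold change was 0.27. Their summed level was 3537, 6241 and 6567 TPM in wild-type and 6410, 7145 and 6917 TPM in deficient Th1 libraries. The groups overlapped, and wild-type replicate 1 was again low. In Th17 cells the median was 0.18 and Rfc3 passed (1.56, SE 0.25). Whether the mitosis genes differed more than the S phase genes was not tested.

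Of 13 G1 cyclins, kinases and E2F activators, 10 rose in deficient Th1 cells and none fell, against 17.6% and 13.7% of all genes. The D cyclins Ccnd1 (3.59, SE 0.20), Ccnd3 (2.23, SE 0.13) and Ccnd2 (0.92, SE 0.12) led the list. Ccnd3 read 456, 437 and 364 TPM in wild-type and 1851, 1961 and 2076 TPM in deficient Th1 cells, and it also rose in Th17 cells (1.84, SE 0.30, adjusted p = 0.0156). Ccnd1 read 12.6 to 16.6 TPM in deficient Th1 libraries and under 1 TPM in the other 9. It was the gene of this list whose genotype effect differed between the lineages (-3.18, Th17 minus Th1, adjusted p = 0.000527).

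Of the 15 genes of MuvB, DREAM, B-Myb and FoxM1, 6 rose in deficient Th1 cells and none fell, against 17.6% and 13.7% of all genes. Their median log2 fold change was 0.62. The repressor E2f7 rose most clearly (2.00, SE 0.22), followed by the MuvB subunits Lin9 (0.89, SE 0.18) and Lin54 (0.67, SE 0.16), the last of which is the subunit that contacts the CHR. E2f7 passed in Th17 cells too (2.11, SE 0.44, adjusted p = 0.0344). Foxm1 read 2.48, 7.75 and 6.40 TPM in wild-type and 11.9, 12.4 and 13.7 TPM in deficient Th1 cells, and 14.2, 109 and 12.6 TPM in deficient Th17 cells, where replicate 2 was again high.

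Several inhibitors of the cycle rose as well. Of 17 tested CDK inhibitors and p53 targets, 8 were higher and 2 lower in deficient Th1 cells and 3 were higher in Th17 cells. Of all genes, 17.6% were higher and 13.7% lower in Th1 cells, and 4.6% were higher in Th17 cells. Btg2, an antiproliferative p53 target, rose in both lineages (2.67, SE 0.24, in Th1 and 2.73, SE 0.22, in Th17). So did Cdkn2b, an inhibitor of the D cyclin kinases (1.57, SE 0.17, and 2.31, SE 0.28). Plk3 rose in Th1 (1.72, SE 0.17) and the inhibitor Cdkn2c in Th17 cells (1.96, SE 0.35). The median of the list was 0.30 in Th1 and 0.77 in Th17 cells. In both lineages the inhibitor Cdkn2b and the D cyclin Ccnd3 were thus higher in deficient cells. The list of inhibitors and p53 targets was mixed. Of the 17 tested, 11 had a log2 fold change above 0 in Th1 cells and 12 in Th17 cells. The lowest values were -1.17 in Th1 and -1.55 in Th17 cells.

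Of 17 subunits and regulators of the APC/C, 6 rose and 3 fell in deficient Th1 cells, against 17.6% and 13.7% of all genes. Their median log2 fold change was 0.056. In Th17 cells none passed by limma, where 7.3% of all genes did. There 2 had an unadjusted p under 0.05, against 25% of all genes. The small subunits Cdc26 (-0.73, SE 0.14) and Anapc16 (-0.85, SE 0.17) fell, and Fzr1, the activator of the APC/C in G1, rose (0.84, SE 0.18). The difference between these subunits and the 40 genes was not tested.

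The libraries do not mark the strand, and 17 of the 40 genes overlap another gene model. In 7 of them the partner had a mean of 10 TPM or more over the 12 libraries: Exosc9 with Ccna2, Cstf1 with Aurka, Elovl1 with Cdc20, a pseudogene with Kif11, Oip5 with Nusap1, Brd8 and Cdc23 with Kif20a, and Rccd1 with Prc1. Rccd1 read 3.34, 5.26 and 7.47 TPM in wild-type and 16, 16 and 14.4 TPM in deficient Th1 cells, far below Prc1. Reads in the shared parts cannot be assigned to either gene of a pair from these tables.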

How the data were processed

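Total RNA of mouse Th1 and Th17 cells had been turned into full-length cDNA with the SMART-Seq v4 kit, tagmented with Nextera XT and read from 1 end, per the labels' protocols. Tools named in the submitters' processing notes, without their roles, are STAR 2.7.2b, featureCounts 1.6.4, DESeq2 1.24.0, cutadapt and bcl2fastq 2.20.0.422, with the build GRCm38.p6. The authors deposited 1 table of TPM per lineage, and these values sum to 1 common total in each library. Other values in those deposited tables (coordinates, exon length) were used to place the genes. The tables hold no counts, but TPM times exon length gave whole reads (tolerance 0.02) for 100% of values, and these recovered reads served an alternative test.

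For genes at 1 TPM or more in 3 or more of the libraries fitted, log2(TPM + 1) was tested by limma 3.58.1 under R 4.3.3 (mean-variance trend, Benjamini-Hochberg over all genes, threshold 0.05). Fold changes are on that scale, which understates changes of low genes. Genotypes were compared within a lineage on 6 libraries, lineages and the difference of the genotype effects on all 12. The fit was also run on simulated data, which had the same spread in every group and no library apart from its group. That setting was unlike the data here, so the run does not show how the fit does on them. Alternatives were pseudocounts of 0.5 and 5, no filter, a filter at 5 TPM, median-of-ratios scaling, a replicate block, voom on recovered reads, all 12 libraries in 1 model, each library left out, and 3 combinations of left-out libraries chosen after seeing the data.

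Replicate numbers come from the sample titles. Same-numbered libraries deviated together between genotypes in Th17 (r = 0.14, 0.41 and 0.23 over genes), against -0.41 to 0.11 for different numbers. Wild-type Th17 replicate 1 went nearly as much with deficient replicate 3 (0.11) as with deficient replicate 1 (0.14). Its number thus hardly singled out a partner, and pairing in Th17 is not settled by this check. Between lineages in wild type r was 0.72, 0.26 and 0.53, against -0.61 to 0.28 for different numbers. There Th17 replicate 2 went as much with Th1 replicate 3 (0.28) as with Th1 replicate 2, so its number did not single out a partner. Same-numbered libraries did not all deviate together between genotypes in Th1 (0.16, 0.21 and -0.07) or between lineages in deficient cells (0.22, -0.04 and -0.19).

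The 40 genes and all lists were chosen with earlier results of these data known. All 40 are named; values by library are given for those that passed (up to 12 a comparison by smallest adjusted p), for the most highly expressed gene of each role, and for genes singled out after their values were seen. Of the other lists the 3 genes with the smallest adjusted p in each genotype comparison are named, beside genes singled out later. Lists were described by counts, medians and summed TPM (with mean and SD by group), and no test was run across the genes of a list.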

Additional observations from a re-analysis of the deposited data

How the results depend on the processing

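In Th1 cells the count of 26 of 40 genes was 24 to 29 under a pseudocount of 0.5 or 5, a filter at 5 TPM, median-of-ratios scaling and voom on recovered reads. Under these settings 3408 to 4512 genes passed in all. The count of the 40 was 14 with no filter (3696 of 24888 genes in all) and 13 with all 12 libraries in the model (2568 of 14579). It ranged from 12 to 30 with each library left out, where 2594 to 4587 genes passed in all. In Th17 cells the count of 1 was 2 with median-of-ratios scaling, 2 with voom, 7 with all 12 libraries in the model and 0 to 3 with each library left out. Of all genes, 1186 of 13823 passed with that scaling, 1311 of 13823 with voom and 2933 of 14579 with all 12 libraries. With each library left out, 109 to 2158 genes passed in all. The count of the 40 was 11 with wild-type replicate 1 and deficient replicate 2 left out together (4335 of 12847 genes in all). There Kif2c reversed to -0.58 from 0.19. The difference of the genotype effects gave 0 in every setting run. Between lineages in wild type the count was 0 to 2 with each library left out, and 1 (Cdc20) with both replicate 1 libraries left out together. The 2 were Cdc25b and Hjurp, without Th17 deficient replicate 2, where 1582 of 14349 genes passed in all. Between lineages in deficient cells the count was 1 with a filter at 5 TPM (636 of 10212 genes in all), median-of-ratios scaling (1012 of 14579) and voom (1097 of 14579). It was 0 to 1 with each library left out.

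With the replicate block the count was 6 in Th17 cells (1399 of 13823 genes in all). There same-numbered libraries deviated together, for replicate 1 only by a narrow margin. The block gave 32 in Th1 cells (4479 of 13487) and 1 between lineages in deficient cells (960 of 14579), where the libraries share only a number. It changed no other count. Voom moved the median of all genes in Th17 cells from 0.039 to -0.095. Over the genes called, 309 of 379 alternative values kept their call and 70 lost it. Over those not called, 48 of 3141 alternative values gained a call in the same direction. Another 135 changed sign without a call, and 1 changed sign with a call. The lowest member value rested on 152 reads, and depth per library is given in the report. The causes of these changes were not tested.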
